A study of Mus musculus with 8 samples.

Results

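The comparison described here sets muscle stem cells against the mature cell of the same lineage. RNA of mouse satellite cells (SC, 2 libraries, numbered 1 and 3) was compared with RNA of single muscle fibres (SMF, 3 libraries), across every gene that reached 1 FPKM (fragments scaled to transcript length and to the total of the library) in at least 2 of these 5 libraries. That rule took 13400 of the 36048 genes in the deposited table. Each satellite cell library came from about 100000 cells of the hindlimb, isolated by fluorescence-activated sorting. Fibres came from the extensor digitorum longus (EDL), a fast hindlimb muscle, were left for 3 h so that damaged ones contracted, and intact ones were then picked by hand, 100 to a library. No treatment or genotype separates the groups, and the labels leave out the strain, age and sex of the mice. Population, muscle of origin and way of isolation differed together and cannot be told apart. The labels do not say that libraries came from separate animals, so p-values measure the spread between these libraries only, which may be technical.

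Satellite cells lie between the fibre and its basement membrane. In the adult they are held out of the cell cycle, in part by Notch signalling, and they carry the transcription factor Pax7. On injury they switch on Myod1 and then Myog, divide, and fuse into fibres. A fibre is a syncytium with many nuclei that no longer divides. Its nuclei transcribe the genes of the sarcomere (the contractile unit), of the calcium stores that start contraction and of the enzymes that supply ATP. Several of these proteins exist as a pair of related genes, one used in most cells and one used mainly in muscle, so the passage from stem cell to fibre can also be read as a change of isoform.

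Both labels matched their defining genes. Pax7 was at 93.6 and 118 FPKM in the SC libraries and at 0.349, 0 and 0.282 FPKM in the SMF libraries. Myh4, a fast myosin heavy chain, was at 2.83 and 5.81 FPKM in SC and at 8132, 8700.1 and 7738 FPKM in SMF. The values of the groups lay far apart for both genes. Spearman's correlation over the 13400 genes was 0.899 between the SC libraries, 0.915 to 0.919 among the SMF libraries and 0.451 to 0.457 between the populations, as a description of libraries made and scaled the same way. Deposited coverage gave 313 and 278 Mb of aligned sequence for SC and 525 to 581 Mb for SMF, so that 1 fragment on a transcript of 1 kb was worth 0.320 and 0.360 FPKM in SC and 0.172 to 0.190 FPKM in SMF. Low SC values are therefore the less precise ones. By the labels, 1 unnamed sample of the study fell short of the RNA integrity number of 8 that the others met.

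Tested with limma on log2(FPKM + 1), 8725 genes (65.1% of those tested) were higher in satellite cells and 1458 (10.9%) were higher in fibres at an adjusted p under 0.05. The other 3217 genes did not pass. The median difference over all genes, SC minus SMF, was 1.14 in units of log2(FPKM + 1), where the added 1 shrinks the change of weakly expressed genes. FPKM is a share of the library total, so the direction of a moderate difference depends on how the libraries are scaled. The median fell to 0.19 with median-of-ratios scaling, 0.48 with upper-quartile scaling and 0.53 when the 50 most abundant genes of each group were left out of the totals. The share of calls that were higher in SC fell in the same order from 85.7% to 55.0%, 66.7% and 68.8%. Calls that held under the deposited values and all 3 other scalings, called "all 4 scalings" from here on, numbered 4570 higher in SC (34.1%) and 1458 higher in SMF (10.9%). The other 453 genes that passed in both directions were all higher in SC as deposited and higher in SMF under another scaling. The 3 other scalings all move values toward the fibres, so this second count tests the SC calls only, and no SMF call was lost. Lists of genes below are given with both counts, which are to be read against these shares. A gene under 1 FPKM in every library of 1 group passed the limit through the other group alone, which favours a call there. Large differences were found on both sides. At least 3 log2 units separated the groups for 796 genes higher in SC and 254 higher in SMF, and at least 5 units for 70 and 75.

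**Figure D1:**
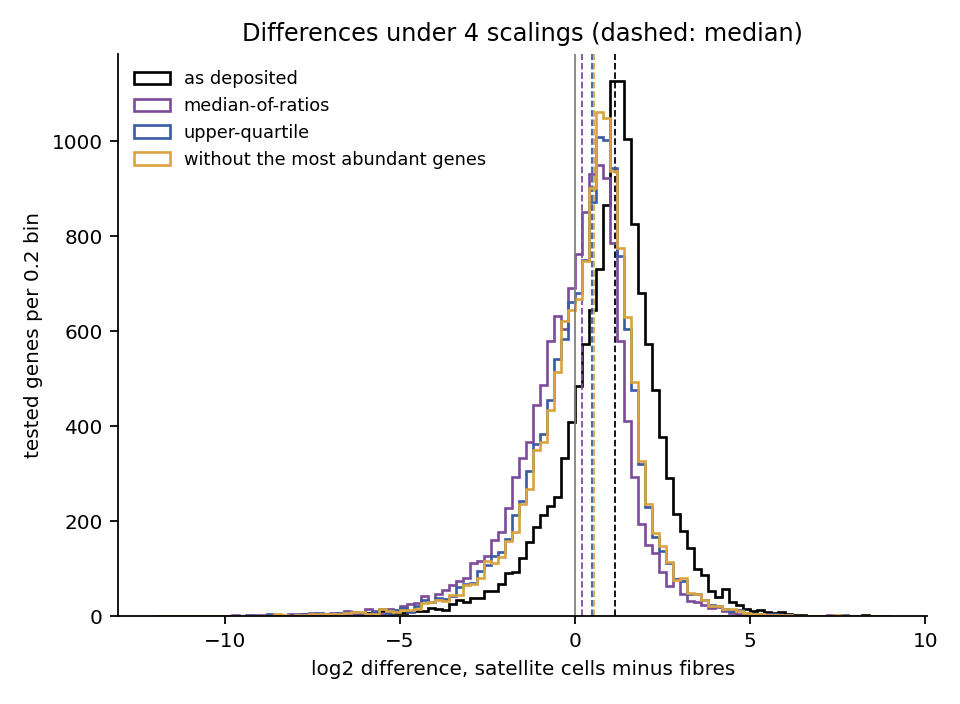
Number of tested genes by log2 difference, satellite cells minus fibres, in bins of 0.2, under the values as deposited and the 3 other scalings, with the median of each as a dashed line. The whole distribution moved toward the fibres under every other scaling, from a median of 1.14 to 0.19, 0.48 and 0.53, while its long left tail of fibre genes stayed clear of 0.

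The nuclear protein-coding FPKM of the fibre libraries lay in few genes. Among the 9153 nuclear protein-coding genes, the 10 most abundant held 37.1% of the FPKM of fibres and 8.55% of that of satellite cells. The 100 most abundant held 61.0% and 32.1%. The first 32 genes held 50% of the total in fibres, and the first 397 did so in satellite cells. This concentration showed in every library, with 53.1% to 55.3% of the FPKM in the first 50 genes of each SMF library against 24.0% and 23.8% in SC1 and SC3. Over genes of every kind the groups were nearer. There the 10 most abundant held 66.8% and 63.7% of the FPKM in SC1 and SC3 and 76.2% to 78.9% in SMF. The number of members at 1 FPKM or more was 7857, 7872 and 7983 in SMF and 12298 and 12608 in SC.

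**Figure D2:**
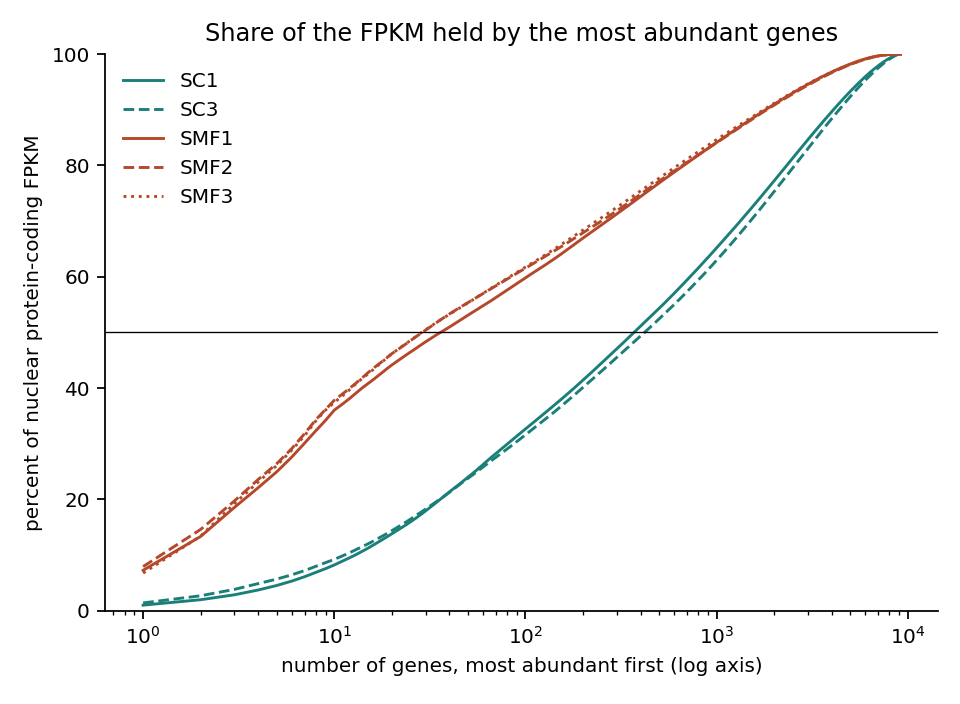
Cumulative percent of the nuclear protein-coding FPKM (vertical axis) against the number of genes taken from the most abundant down (horizontal log axis), 1 line for each library. The 3 fibre lines cross the 50% line near 32 genes and the 2 satellite cell lines near 397.

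Genes that mark satellite cells were higher in SC throughout as deposited. All 25 members of a list of satellite cell genes were higher in SC, 23 of them under all 4 scalings. Their median difference was 4.30 against 1.14 over all genes. Pax7, Vcam1, Cxcr4, Calcr, Fgfr4, Chodl, Hey1, Heyl, Megf10, Sdc3, Edn3, Ncam1 and Cdh4 were under 1 FPKM in every SMF library. They entered the comparison through SC alone, which favours a call there, so the count and the median do not test their direction. Chodl, a membrane lectin of quiescent satellite cells, had 142 and 143 FPKM in SC and 0.0658, 0.0670 and 0.0986 FPKM in SMF. It differed by 7.06 (SE 0.20, adjusted p = 4.8e-07), and by 6.29 after median-of-ratios scaling. Fgfr4, a receptor for fibroblast growth factors, had 95.8 and 107 FPKM in SC, was listed at 0 in SMF1 and SMF2 and stood at 0.0756 FPKM in SMF3. Calcr, the calcitonin receptor that helps keep the cells quiescent, stood at 26.8 and 28.6 FPKM in SC, and each SMF library listed it at 0.

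The adhesion genes of the list followed. Vcam1, Itga7, Cdh15, Ncam1, Cdh4, Cd34 and the syndecans Sdc3 and Sdc4 tie the stem cell to its niche. Sdc4 was the most abundant of them, with 352 and 299.7 FPKM in SC and 17.9, 13.0 and 17.7 FPKM in SMF. Itga7, the laminin-binding integrin chain used to sort satellite cells, had 41.1 and 43.4 FPKM in SC and 4.33, 5.22 and 4.26 FPKM in SMF. Its difference was 2.95, and 1.51 after median-of-ratios scaling. Receptors and signalling genes of the list were Cxcr4, Fgfr1, Megf10, Musk, Met and the peptide ligand Edn3. Megf10, an engulfment receptor linked to Notch, stood at 33.8 and 38.4 FPKM in SC, while SMF1 and SMF2 listed it at 0 and SMF3 at 0.0375 FPKM. Met, the receptor for hepatocyte growth factor, differed least among these receptors. It had 10.6 and 14.8 FPKM in SC and 3.55, 3.30 and 3.05 FPKM in SMF, a difference of 1.66 as deposited and 0.29 after median-of-ratios scaling, under which it did not pass. Cdh4 was the other member lost under a scaling. The rest were Spry1 (an inhibitor of growth factor signalling), Cav1 (the scaffold of caveolae), Dag1 (dystroglycan), Peg3 (an imprinted zinc finger gene), Gpx3 (a secreted glutathione peroxidase) and the Notch targets Hey1 and Heyl. All were higher in SC under all 4 scalings. Gpx3 was the most abundant of the list, with 575 and 566 FPKM in SC and 34.9, 30.5 and 31.2 FPKM in SMF.

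The myogenic transcription factors did not move as 1 group. Of 22 tested regulators, 15 were higher in SC and 3 in SMF, and under all 4 scalings 10 and 3. Myf5, a determination factor already transcribed in quiescent cells, had 76.7 and 93.8 FPKM in SC and 0.441, 0.328 and 0.480 FPKM in SMF. Myod1, the factor of early activation, had 34.5 and 32.0 FPKM in SC and 8.09, 3.92 and 3.52 FPKM in SMF. Myog, which drives differentiation, had 31.0 and 28.9 FPKM in SC and 0.857, 0.395 and 0.624 FPKM in SMF. Myf6, the factor of mature fibres, had the opposite pattern, with 0.873 and 0.568 FPKM in SC and 48.8, 38.5 and 44.7 FPKM in SMF, a difference of -4.71 (SE 0.16, adjusted p = 7.8e-07). So 3 of the 4 members of this family were higher in the stem cells and the fourth was higher in the fibres. Smyd1, a methyltransferase needed for sarcomere assembly, was likewise higher in SMF, with 0.601 and 0.614 FPKM in SC and 31.1, 30.2 and 32.0 FPKM in SMF.

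The MEF2 factors, which act with the myogenic factors on muscle promoters, split by member. Mef2c had 0.335 and 0.683 FPKM in SC and 17.4, 23.1 and 14.7 FPKM in SMF and was called higher in SMF. Mef2a, between 5.26 and 6.69 FPKM in all 5 libraries, and Mef2d, between 7.52 and 11.1, did not pass as deposited, and differed by -1.50 and -1.70 after median-of-ratios scaling. The inhibitors of this programme were on the other side. Id3 had 106 and 125 FPKM in SC and 1.77, 0.960 and 1.14 FPKM in SMF, Id1 had 42.2 and 44.5 FPKM in SC and 1.03 to 2.19 FPKM in SMF, and Msc had 11.9 and 17.9 FPKM in SC and at most 0.494 FPKM in SMF. Pax3, the relative of Pax7, had 7.13 and 4.44 FPKM in SC and 0.407, 0.127 and 0.250 FPKM in SMF. The E proteins Tcf4 and Tcf12, the partners of the myogenic factors, were also higher in SC under all 4 scalings. Srf, which drives actin genes, passed as deposited but not under all 4. The direction of some regulators depended on the scaling. Id2, Tead1, Six4 and Eya4 changed sign after median-of-ratios scaling, from 1.47, 1.35, 0.59 and 0.35 to -0.02, -0.05, -0.49 and -1.08, and Eya1 did not pass as deposited, at 4.46 to 7.11 FPKM in all 5 libraries.

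To show what lies directly upstream of genes that separated the groups, the 90 bases before the RefSeq start of 2 satellite cell genes are given with 3 fibre genes (GRCm38.p6, strand of the gene, 5′ to 3′). Capitals mark TATAAA, read on the strand of the gene, the E-box CANNTG bound by myogenic factors, and the CArG box bound by Srf, the last 2 on both strands. None of these motifs overlap in the stretches shown.
Chodl, chr16:78930858-78930947, plus strand: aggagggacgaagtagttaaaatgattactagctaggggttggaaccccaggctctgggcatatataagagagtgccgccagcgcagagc
Myf5, chr10:107486135-107486224, minus strand: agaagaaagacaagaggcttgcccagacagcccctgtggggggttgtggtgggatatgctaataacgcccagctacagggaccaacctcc
Acta1, chr8:123894776-123894865, minus strand: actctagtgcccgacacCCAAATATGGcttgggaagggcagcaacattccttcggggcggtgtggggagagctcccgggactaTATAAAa
Myh1, chr11:67200012-67200101, plus strand: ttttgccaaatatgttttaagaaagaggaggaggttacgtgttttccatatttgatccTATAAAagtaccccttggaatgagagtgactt
Atp2a1, chr7:126463074-126463163, minus strand: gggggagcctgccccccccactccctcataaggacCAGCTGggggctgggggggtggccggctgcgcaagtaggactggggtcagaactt
The Acta1 stretch holds a CArG box and a TATAAA, that of Myh1 a TATAAA and that of Atp2a1 an E-box. Neither satellite cell stretch holds any of the 3 as spelled above. Close variants of TATAAA, such as tatataa in the Chodl stretch, were not searched for. Over the 32851 promoters of the RefSeq table, the same window holds TATAAA in 3.57%, CANNTG in 31.5% and CArG in 0.545%. The RefSeq start of Acta1 lies 39 bases, and that of Atp2a1 35 bases, from the start of the transcript in the deposited table. A comparison of motif shares between the 2 populations would be void, because 5801 of the 13400 genes (43.3%) matched a promoter entry by symbol.

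Of the signalling lists, the Notch pathway had more calls in SC than the share over all genes, while receptors and secreted factors lay near it as deposited. Of 15 tested genes of the Notch pathway, in which a ligand on a neighbouring cell releases the intracellular part of the receptor to act with Rbpj in the nucleus, 14 were higher in SC, 12 under all 4 scalings. Notch3 had 58.8 and 68.7 FPKM in SC and 0.0527, 0.150 and 0.171 FPKM in SMF. Notch2 had 33.7 and 36.4 FPKM in SC and 0.722, 0.993 and 0.999 FPKM in SMF. The target Heyl had 72.8 and 74.1 FPKM in SC and at most 0.334 FPKM in SMF. Notch1, Notch2, Notch3, Jag1, Hey1, Heyl and Nrarp were under 1 FPKM in every SMF library. They entered the comparison through SC alone, which favours a call there, so the count for the list does not test their direction. Notch3 is also a mural cell gene, and mural markers are given below. Of 25 growth factor receptors, 17 were higher in SC and 2 in SMF, and 9 and 2 under all 4 scalings. Tgfbr3, a co-receptor for TGF-beta ligands, had 86.4 and 96.1 FPKM in SC and 0.930, 1.13 and 1.099 FPKM in SMF. Ghr, the growth hormone receptor, went the other way, with 2.67 and 3.03 FPKM in SC and 9.29, 9.71 and 8.34 FPKM in SMF, as did Acvr1b, an activin receptor. Among 29 secreted factors, 18 were higher in SC and 3 in SMF, and 14 and 3 under all 4. Sparc, a matrix protein, Fstl1, the chemokine Cxcl1 and the growth factor Igf2 were high in SC, Igf2 at 52.5 and 25.3 FPKM against 0.966, 1.27 and 1.49 FPKM. The 3 higher in SMF were the vessel growth factors Vegfa and Vegfb and Mstn, the inhibitor of muscle growth. Mstn had 0.340 and 0.253 FPKM in SC and 18.7, 20.2 and 18.8 FPKM in SMF. Vegfa had 27.8 and 11.6 FPKM in SC and 43.7, 30.4 and 33.3 FPKM in SMF.

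Cell cycle genes were higher on the satellite cell side as deposited. All 20 tested genes, of 27 listed, were higher in SC, 18 under all 4 scalings. Apart from Pcna and Rrm1, the tested genes were under 1 FPKM in every SMF library. Such genes entered the comparison through SC alone, so the 1 FPKM limit fixed their direction. Ccnd1, the cyclin of G1, had 24.6 and 31.9 FPKM in SC and 0.0713, 0.309 and 0 FPKM in SMF. Mki67, a marker of cycling cells, had 14.8 and 20.9 FPKM in SC and 0, 0.0510 and 0.0916 FPKM in SMF. Rrm1, a subunit of the enzyme that makes deoxyribonucleotides, had 7.39 and 7.10 FPKM in SC and 3.70, 3.51 and 4.68 FPKM in SMF, and turned from 0.74 to -0.60 after median-of-ratios scaling. Pcna, the replication clamp, had 1.52 to 4.16 FPKM in SMF and 14.6 and 15.9 FPKM in SC. Genes that hold cells out of the cycle were high in the same SC libraries. Of 20 tested, 18 were higher in SC and 1 in SMF, and 13 and 1 under all 4 scalings. The inhibitor Cdkn1a had 55.2 and 35.4 FPKM in SC and 2.07, 2.83 and 2.61 FPKM in SMF, and the antiproliferative gene Btg1 had 70.4 and 59.8 FPKM in SC and 2.49 to 3.07 in SMF. Tob1, a relative of Btg1, was the exception, with 29.6 and 18.2 FPKM in SC and 68.4, 48.8 and 56.5 FPKM in SMF. Of 24 replication histone genes, 20 were higher in SC and 1 in SMF (14 and 1 under all 4). Hist1h1e had 102 and 105 FPKM in SC and 8.01, 10.7 and 12.1 FPKM in SMF. The member higher in SMF was Hist1h2bc, at 14.7 and 18.8 FPKM in SC and 33.9 to 37.4 FPKM in SMF. Fusion genes were mostly higher in SC as well, 12 of 13 as deposited and 9 under all 4. Cdon, a co-receptor that promotes fusion, had 48.7 and 59.3 FPKM in SC and at most 0.976 FPKM in SMF. Dysf, which reseals the fibre membrane, was the member higher in SMF.

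Immediate early genes, which respond within minutes to stimuli that include tissue dissociation, were among the most abundant transcripts of the SC libraries. All 29 listed genes were higher in SC, 20 under all 4 scalings. Fos had 1124 and 1577 FPKM in SC and 199.8, 90.02 and 114 FPKM in SMF, a difference of 3.38 (SE 0.37, adjusted p = 1.0e-04), and of 1.79 after median-of-ratios scaling. Egr1 had 1013 and 1262 FPKM in SC and 175, 78.6 and 92.8 FPKM in SMF. Jun, Junb and Cyr61, an immediate early matrix protein, are further genes of this kind among the 12 most abundant genes that were at least 3 log2 units higher in SC. The inducible heat shock genes Hspa1a and Hspa1b belong to the same 12. Hspa1a had 882 and 1397 FPKM in SC and 28.2, 9.70 and 25.7 FPKM in SMF. The fibre libraries held these transcripts too, in unequal amounts. SMF1 was the highest of the 3 for Fos and Egr1, and for Atf3, a stress factor named after its values were seen, with 140 FPKM against 42.5 and 55.3 in SMF2 and SMF3. Summed over the list, the levels were 8245 and 11062 FPKM in SC and 1364, 669 and 823 FPKM in SMF. The part of the isolation in these genes was not tested. The 90 bases before the RefSeq start of Fos (GRCm38.p6) hold a TATAAA and an E-box, in capitals.
Fos, chr12:85473800-85473889, plus strand: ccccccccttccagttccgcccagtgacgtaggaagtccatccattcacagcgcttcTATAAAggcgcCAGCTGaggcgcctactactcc

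Genes of the ribosome lay on the satellite cell side as deposited. All 30 tested ribosomal protein genes were higher in SC, 28 under all 4 scalings, with a median of 2.98 as deposited and 1.40 after median-of-ratios scaling. Rpl4 had 905 and 946 FPKM in SC and 154, 163 and 178 FPKM in SMF, Rpl8 had 652 and 610.4 FPKM in SC and 71.9 to 91.1 FPKM in SMF, and Rplp0 had 452 and 467 FPKM in SC and 81.5 to 98.9 FPKM in SMF. Rpl13a and Rps3a1 were also among those 12 genes. Rps23, counted among the 30, was listed at 0 in each SMF library, which can be a failed estimate. Apart from Rps23, Rpl3 differed most in the list, with 94.4 and 104 FPKM in SC and 0.617, 0.823 and 0.592 FPKM in SMF, a difference of 5.91. Rpl3l, the copy of this ribosomal protein gene made in striated muscle, was the mirror image, with 0.570 and 0 FPKM in SC and 139, 115 and 140.0 FPKM in SMF (difference -6.72). This pair was chosen after its values were seen. Nucleolar genes, which make the ribosome, were higher in SC in 20 of 20 cases, 11 under all 4, with Npm1 at 77.0 and 87.8 FPKM in SC and 11.2 to 14.6 FPKM in SMF. Ribosomal protein genes and Eef1a1 have near-identical copies elsewhere in the genome, so their levels are uncertain where the counting could split reads between copies.

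Translation factors were more mixed. Of 23 tested, 14 were higher in SC and 2 in SMF, but 4 and 2 under all 4 scalings, and 3 turned direction. Median-of-ratios scaling alone gave 4 higher in SC and 12 in SMF, with a median difference of -0.60. The clearest change was in the elongation factor that carries aminoacyl-tRNA to the ribosome. Eef1a1, used in most cells, had 912 and 1002 FPKM in SC and 4.49, 7.83 and 10.6 FPKM in SMF. Eef1a2, used in muscle and neurons, had 0.751 and 2.18 FPKM in SC and 265, 238 and 286 FPKM in SMF. Eef2, which has no such partner in the pairs described here, had 672 and 648 FPKM in SC and 106 to 120.0 FPKM in SMF, and Pabpc4, a poly(A)-binding protein, was the second member higher in SMF. The stretches before the starts of the elongation factor pair and of Rpl3l (GRCm38.p6, 90 bases, marked as above) show that those of Eef1a2 and Eef1a1 hold none of the 3 motifs and that of Rpl3l holds 2 E-boxes.
Eef1a1, chr9:78481725-78481814, minus strand: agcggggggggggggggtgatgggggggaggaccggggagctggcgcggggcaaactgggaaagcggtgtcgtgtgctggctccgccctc
Eef1a2, chr2:181157016-181157105, minus strand: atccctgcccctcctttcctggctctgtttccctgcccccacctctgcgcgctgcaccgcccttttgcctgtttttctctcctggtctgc
Rpl3l, chr17:24727736-24727825, plus strand: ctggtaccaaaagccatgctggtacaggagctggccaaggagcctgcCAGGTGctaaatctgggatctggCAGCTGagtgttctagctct

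The contractile apparatus dominated the fibre side. All 17 tested genes of the fast sarcomere and its calcium handling were higher in SMF under all 4 scalings, with a median difference of -6.60, and they summed to 42770 to 46215 FPKM in SMF against 274 and 427 FPKM in SC. Myh4 differed by -10.65 (SE 0.46, adjusted p = 1.9e-06). Acta1, the actin of the thin filament, had 108 and 164 FPKM in SC and 5843, 5609 and 6771 FPKM in SMF. The troponin subunits Tnnt3, Tnni2 and Tnnc2, which make the thin filament sensitive to calcium, were at 6829 to 7841, 2996 to 3439 and 2800.5 to 3024 FPKM in SMF, and none exceeded 45.4 FPKM in SC. Myosin light chains Mylpf and Myl1, the alpha chain tropomyosin Tpm1 and the alpha-actinin Actn3 followed, none of them below 1043 FPKM in any SMF library. Pvalb, the calcium buffer of fast fibres, had 6.27 and 9.11 FPKM in SC and 3992, 4271 and 4546 FPKM in SMF. Of these genes Acta1 was the one with the highest level in SC. Low levels of fibre genes in the sorted SC libraries moved with each other, with SC3 above SC1 for Myh4, Tnnt3, Acta1, Pvalb and Ckm. Whether they are transcripts of the stem cells or RNA of fibres was not tested.

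**Figure D3:**
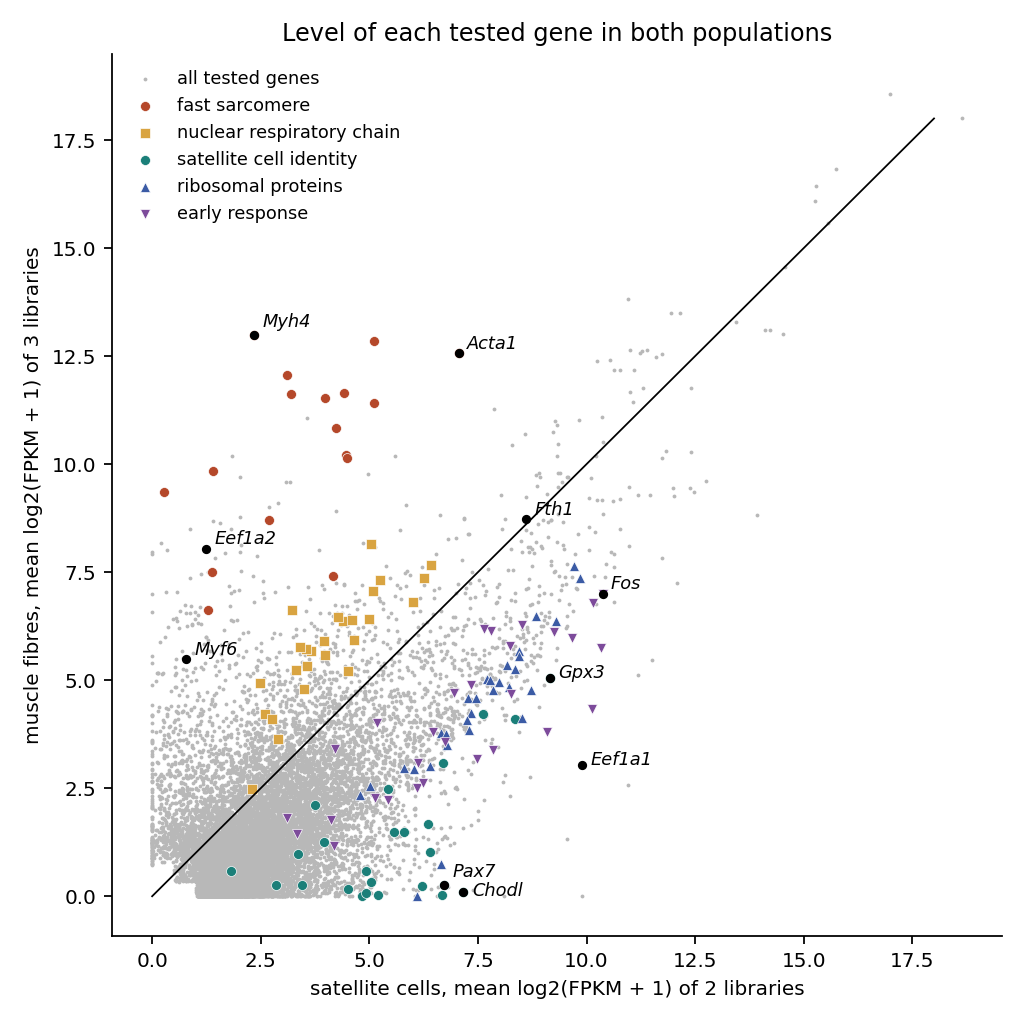
Mean log2(FPKM + 1) of each tested gene in satellite cells (horizontal) and in fibres (vertical), with the line of equal levels, 5 gene lists in colour and single genes in black. Fast sarcomere and nuclear respiratory chain genes lie above the line, and satellite cell, ribosomal protein and early response genes lie below it.

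The scaffold around the filaments had the same direction. Of 24 tested genes of the giant proteins and the Z-disc, 21 were higher in SMF, also under all 4, and none in SC. Ttn, the molecular spring, had 1.56 and 2.36 FPKM in SC and 419, 536 and 286 FPKM in SMF. Neb, the ruler of the thin filament, had 2.29 and 3.98 FPKM in SC and 438, 536 and 356 FPKM in SMF. Tcap, which caps titin at the Z-disc, had 5.93 and 7.05 FPKM in SC and 573, 501 and 569 FPKM in SMF. Des, the muscle intermediate filament, was less one-sided, with 140.2 and 168 FPKM in SC and 337, 313 and 354 FPKM in SMF, and a difference of -1.12 (adjusted p = 0.044). SMF3 was the lowest fibre library for Ttn and Neb, the longest transcripts.

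Genes that couple the nerve impulse to calcium release followed the sarcomere. Of 24 tested, 21 were higher in SMF under all 4 scalings. Casq1, which binds calcium inside the store, had 1.36 and 1.96 FPKM in SC and 822, 999.6 and 932 FPKM in SMF. Trdn and Hrc, other proteins of the store, had at most 2.99 FPKM in SC and at least 222 FPKM in every SMF library. Ryr1, the release channel, had 0.865 and 1.35 FPKM in SC and 91.4, 101 and 78.9 FPKM in SMF, and Cacna1s, the voltage sensor that opens it, had 0.690 and 1.097 FPKM in SC and 70.9 to 81.4 FPKM in SMF. Of 18 ion channels and pumps, 14 were higher in SMF and 4 in SC, and 14 and 2 under all 4. The sodium channel subunit Scn4b had 0.286 and 0.680 FPKM in SC and 34.1 to 36.9 FPKM in SMF.

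Fuel use divided along the same line. Of 34 genes of glycolysis and glycogen, 24 were higher in SMF, all of them under all 4 scalings, and 9 were higher in SC, 4 under all 4. Aldoa, the aldolase of muscle, had 43.8 and 51.3 FPKM in SC and 1129, 1088 and 1273 FPKM in SMF. Pygm, which releases glucose from glycogen, had 7.99 and 8.05 FPKM in SC and 768, 719 and 833 FPKM in SMF. Eno3 and Pgam2, the muscle forms of enolase and phosphoglycerate mutase, had at most 6.20 FPKM in SC and at least 721 FPKM in each SMF library. Members on the other side were forms used in most cells, such as Hk1, with 16.1 and 20.5 FPKM in SC and 0.102, 0.105 and 0.205 FPKM in SMF. Gapdh, named after its values were seen, was low in both groups, at 9.06 and 8.99 FPKM in SC and 38.6, 14.3 and 33.6 FPKM in SMF. It has many near-identical copies in the genome, which makes its level uncertain. Of 15 genes of the creatine phosphate and adenylate system, 8 were higher in SMF and 5 in SC (8 and 2 under all 4). Ckm, the creatine kinase of the sarcomere, had 8.10 and 14.3 FPKM in SC and 2110, 2038 and 2284 FPKM in SMF. Ckmt2, its mitochondrial partner, was listed at 0 in both SC libraries and at 269, 202 and 279 FPKM in SMF.

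Mitochondrial genes encoded in the nucleus were higher in fibres, by less than the sarcomere. Of 26 subunits of the respiratory chain, 25 were higher in SMF under all 4 scalings, with a median difference of -1.77 as deposited and -3.29 after median-of-ratios scaling. Cox7b had 34.9 and 28.9 FPKM in SC and 280.2, 265 and 314 FPKM in SMF, and Atp5a1, a subunit of the ATP synthase, had 79.3 and 90.8 FPKM in SC and 207, 171 and 234 FPKM in SMF. Of 28 genes of the citric acid cycle and its regulation, 20 were higher in SMF and 4 in SC (20 and 2 under all 4). Idh3a had 11.7 and 17.9 FPKM in SC and 137, 132 and 141 FPKM in SMF, while Idh2, the NADP-dependent isocitrate dehydrogenase, was on the other side, with 24.8 and 27.7 FPKM in SC and 3.30, 4.13 and 5.24 FPKM in SMF. The transcripts made in the mitochondrion itself gave no such split as deposited. Of the 15 tested, mt-Nd1 alone was called, higher in SMF, while 9 were higher in SMF after median-of-ratios scaling. It had 1806 and 3176 FPKM in SC and 6473, 6403 and 5505 FPKM in SMF. The SC libraries differed widely from each other for some of the others. The cytochrome oxidase subunit gene mt-Co2, named after its values were seen, had 1115 FPKM in SC1 and 150.0 FPKM in SC3. All mitochondrial genes together took 9.14% and 11.5% of the FPKM in SC1 and SC3 and 21.7%, 18.8% and 15.0% in SMF1 to SMF3.

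Genes that burn fatty acids and genes that build lipids leaned to different sides. Of 26 genes of fatty acid use, 14 were higher in SMF and 6 in SC, and 14 and 3 under all 4 scalings. Fabp3, the fatty acid carrier of muscle, had 0 and 5.01 FPKM in SC and 48.0, 62.5 and 71.6 FPKM in SMF. Lpl, the lipase that frees fatty acids from lipoproteins, was higher in SC as deposited, with 12.8 and 10.9 FPKM against 4.58, 2.90 and 4.20 FPKM. Of 19 genes of lipid synthesis, 17 were higher in SC and 1 in SMF, and 12 and 1 under all 4. Scd1, a desaturase, had 25.7 and 23.9 FPKM in SC and 0.402, 1.14 and 0.748 FPKM in SMF. Fdft1, which makes squalene, was the exception, with 5.53 and 5.35 FPKM in SC and 8.22 to 10.8 FPKM in SMF. Of 20 genes of the pentose, serine and nucleotide pathways, 16 were higher in SC, 8 under all 4.

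Contractile genes of slow and developing muscle gave calls on both sides. Of 10 tested genes of the slow sarcomere, 7 were higher in SC and 3 in SMF, 6 and 3 under all 4 scalings. Tnnt1, the slow troponin T, had 7.89 and 6.74 FPKM in SC and 1.11, 0 and 0 FPKM in SMF, and Myl2, the slow light chain, stood at 2.70 and 7.11 FPKM in SC, and each SMF library listed it at 0. Mybpc1 and Mb, a myosin-binding protein and myoglobin, were the exceptions with high levels. Mybpc1 had 15.6 and 20.1 FPKM in SC and 478, 485 and 477 FPKM in SMF. Of 6 tested developmental genes, 3 were higher in SMF and 1 in SC, also under all 4. Myh8, the perinatal myosin, had 2.21 and 2.76 FPKM in SC and 132, 81.6 and 106 FPKM in SMF, and Nrap and Xirp1, proteins of forming myofibrils, were also higher in SMF. Xirp1 was at 189 FPKM in SMF1 and at 62.2 and 70.2 FPKM in SMF2 and SMF3. Acta2, the actin of smooth muscle, was higher in SC, with 135 and 194 FPKM against 3.19, 1.74 and 1.66 FPKM.

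The membrane complexes of the fibre were divided. Of 25 genes of the dystrophin complex and related muscle disease genes, 12 were higher in SC and 9 in SMF, and 8 and 9 under all 4. Dag1 had 210.2 and 180 FPKM in SC and 20.4, 12.9 and 20.8 FPKM in SMF, while the sarcoglycan Sgca had 2.67 and 5.27 FPKM in SC and 37.2, 29.2 and 34.0 FPKM in SMF. Of 14 genes of the neuromuscular junction, 10 were higher in SC and 2 in SMF, 8 and 2 under all 4. Chrnb1, a subunit of the acetylcholine receptor, had 34.9 and 47.3 FPKM in SC and 5.19, 5.60 and 5.76 FPKM in SMF, and Musk, the kinase that clusters the receptor, had 13.5 and 15.6 FPKM in SC and 1.65, 1.47 and 1.04 FPKM in SMF. In a fibre these transcripts come from few nuclei beneath the synapse, as background. Ache, the acetylcholinesterase, was higher in SMF, with 1.07 and 1.11 FPKM in SC and 2.26, 2.73 and 4.03 FPKM in SMF.

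Protein turnover showed muscle-specific and general parts. Of 26 ubiquitin ligases and adaptors linked to muscle, 19 were higher in SMF and 6 in SC (19 and 2 under all 4). Trim63, the ligase known as MuRF1, had 0 and 0.487 FPKM in SC and 87.1, 50.5 and 55.9 FPKM in SMF. Klhl41 and Klhl31, adaptors found in muscle, had at most 5.38 FPKM in SC and at least 76.2 FPKM in each SMF library. Nedd4, a ligase of most cells, was higher in SC, with 61.5 and 69.7 FPKM against 15.9, 16.7 and 14.0 FPKM. Of 19 proteasome and ubiquitin genes, 6 were higher in SC and 4 in SMF, and 2 and 4 under all 4, while median-of-ratios scaling gave 2 and 14. Of 24 autophagy and lysosome genes, 9 were higher in SC and 8 in SMF, and 2 and 8 under all 4, while median-of-ratios scaling gave 2 and 16. Of 26 chaperones, 15 were higher in SC and 9 in SMF, 8 and 9 under all 4 scalings. The heat shock protein Hspa8 had 648 and 731 FPKM in SC and 153, 132 and 156 FPKM in SMF, while the small heat shock proteins Hspb6 and Hspb8 had at most 9.59 FPKM in SC and at least 122 FPKM in each SMF library. Redox and metal genes gave 17 calls in SC and 4 in SMF, of which 2 and 4 held under all 4 scalings, while 7 turned direction. The metallothionein Mt1, which binds zinc, had 617 and 540 FPKM in SC and 164, 111 and 111 FPKM in SMF and did not pass under all 4. Sod2, the mitochondrial superoxide dismutase, was higher in SMF throughout, with 9.22 and 8.24 FPKM in SC and 29.3, 30.1 and 25.9 FPKM in SMF.

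Matrix and cytoskeleton genes were called mainly in SC, as were 65.1% of all tested genes as deposited and 34.1% under all 4 scalings. Of 24 genes of the basement membrane and its integrins, 21 were higher in SC and 1 in SMF (17 and 1 under all 4). Col4a1, the network collagen of basement membranes, had 88.3 and 96.9 FPKM in SC and 0.889, 1.72 and 1.56 FPKM in SMF. Lamc1, a laminin chain, had 60.8 and 68.8 FPKM in SC and 2.59 to 3.69 FPKM in SMF. Itgb1bp2, a muscle integrin partner, was the one higher in SMF. Of 21 genes of the fibrillar matrix, 16 were higher in SC, 13 under all 4, with Col15a1 at 47.3 and 50.6 FPKM in SC and 0.320 to 0.631 FPKM in SMF. Of 33 cytoskeletal genes, 27 were higher in SC and 5 in SMF, 23 and 5 under all 4. Actb, the actin of non-muscle cells, had 487 and 551 FPKM in SC and 27.9, 25.8 and 32.0 FPKM in SMF, and Tmsb4x, which binds actin monomers, had 165 and 158 FPKM in SC and 3.39, 7.58 and 8.32 FPKM in SMF.

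Lists of nuclear and regulatory genes had more calls in SC than in SMF as deposited. The same was true of all tested genes, at 65.1% and 10.9%. The clock list fell below that SC share, and Hox and limb genes lay near it. Of 27 splicing factors, 24 were higher in SC and 2 in SMF, 14 and 2 under all 4. Hnrnpa1 and Hnrnpf were the abundant ones in SC, Hnrnpf with 95.7 and 99.7 FPKM against 5.59, 5.10 and 5.17 FPKM. The 2 higher in SMF were the muscle splicing regulators Rbfox1, with 0.491 and 0.424 FPKM in SC and 27.8, 27.7 and 27.3 FPKM in SMF, and Rbm24, with 5.70 and 7.46 FPKM in SC and 29.4 to 32.2 FPKM in SMF. Of 27 chromatin genes, 24 were higher in SC, 17 under all 4, with Chd4, a remodeller, at 49.9 and 50.2 FPKM in SC and 7.10 to 7.66 FPKM in SMF. Of 15 long noncoding RNAs of the nucleus, 13 were higher in SC, 8 under all 4. All 16 imprinted growth genes were higher in SC, 14 under all 4. Meg3 and Rian, long noncoding RNAs of one imprinted cluster, were named after their values were seen. Meg3 had 14.5 and 10.5 FPKM in SC and 0.0957, 0.172 and 0.118 FPKM in SMF, and Rian had 23.2 and 23.8 FPKM in SC and 0.186, 0.322 and 0.251 FPKM in SMF. Of 18 genes of antigen presentation and interferon response, 17 were higher in SC, 13 under all 4, with B2m, the light chain of MHC class I, at 95.8 and 87.5 FPKM in SC and 9.23, 11.9 and 10.9 FPKM in SMF. Of 18 Hox and limb genes, 13 were higher in SC and 2 in SMF, 8 and 2 under all 4. Tbx15, a limb factor of fast fibres, had 3.60 and 4.96 FPKM in SC and 49.5, 57.3 and 51.1 FPKM in SMF. Of 19 clock genes, 8 were higher in SC and 3 in SMF (3 and 3 under all 4), with Per1 at 25.1 and 28.9 FPKM in SC and 3.39 to 6.31 FPKM in SMF.

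**Figure D4:**
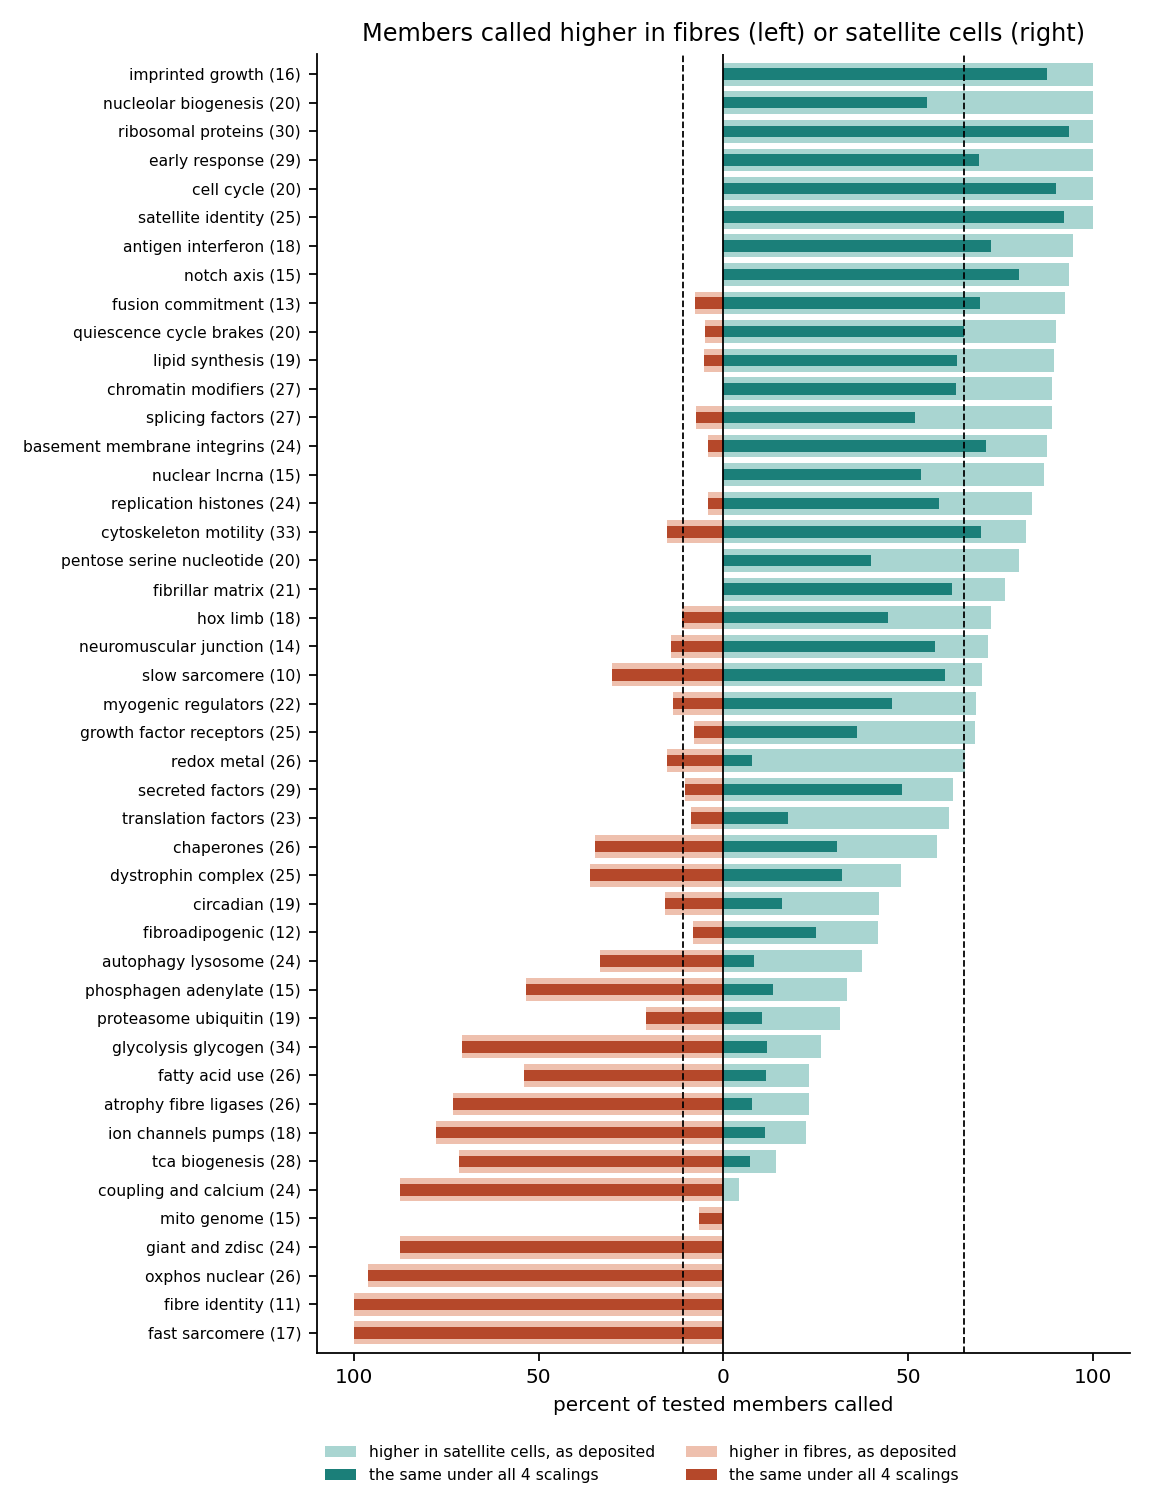
Percent of the tested members of each gene list that were called higher in fibres (left) or in satellite cells (right), as deposited (pale) and under all 4 scalings (dark), for lists with at least 10 tested members, whose number is in brackets. The dashed lines mark the shares over all 13400 genes, 10.9% and 65.1%, and fast sarcomere, coupling and respiratory chain lists reach far past the left one.

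Related genes compared within a library do not depend on its scaling, apart from the added constant. For 37 pairs in the table, the form known from muscle was set against its counterpart as a log2 ratio of FPKM + 1. The pairs were chosen with earlier results known, so their counts are a description. In 36 of them the ratio was higher in every SMF library than in both SC libraries, and in 26 the order of the pair changed, with the muscle form above its partner in all 3 SMF libraries and below it in both SC libraries. The median change of the ratio was 7.48. Eef1a2 over Eef1a1 moved most, from -9.03 and -8.30 in SC to 5.60, 4.76 and 4.63 in SMF. The calcium pump ratio Atp2a1 over Atp2a2 went from -2.30 and -1.70 to 10.60, 10.31 and 10.62, with Atp2a2 itself at 35.8 and 35.1 FPKM in SC and 1.06 to 1.32 FPKM in SMF. Acta1 over Actb went from -2.16 and -1.74 to 7.66, 7.71 and 7.68, and the light chain ratio Myl1 over Myl6 from -1.86 and -1.37 to 7.83, 7.68 and 7.51. Enzymes changed in the same way, with Pgam2 over Pgam1 going from -2.47 and -1.76 to 8.22, 8.47 and 9.53.

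The cytochrome oxidase of the respiratory chain changed subunit forms. Cox8b was listed at 0 in both SC libraries and at 231, 232 and 266 FPKM in SMF, while Cox8a had 79.9 and 88.0 FPKM in SC and 4.96, 6.50 and 5.16 FPKM in SMF. Cox6a2 over Cox6a1 went from -5.18 and -2.79 to 7.12, 6.78 and 7.17. Cox7a1 over Cox7a2 went from -3.33 and -4.13 to 1.61, 1.81 and 1.80, and here the partner stayed high in fibres, at 45.7 to 57.7 FPKM. In the dystrophin pair the partner made the larger change. Dmd had 11.6 and 13.3 FPKM in SC and 15.0, 15.7 and 13.6 FPKM in SMF and did not pass as deposited. Its difference was -0.23 as deposited and -1.72, -1.31 and -1.21 under the 3 other scalings. Utrn, the relative of Dmd, had 37.6 and 40.2 FPKM in SC and 0.354, 1.23 and 0.830 FPKM in SMF. The tubulin pair Tuba8 and Tuba1b changed order too, Tuba8 being listed at 0 in both SC libraries and at 39.4, 38.2 and 45.7 FPKM in SMF. In the AMPK kinase, which senses low energy, Prkaa2 over Prkaa1 went from -2.34 and -1.66 to 2.85, 2.97 and 3.04.

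Some pairs did not change order. Ckm, Pfkm and Pygm were already above Ckb, Pfkl and Pygb in both SC libraries, at ratios of 0.58 to 2.09, and the ratios were at least 8.55 in every SMF library. The ratio of Ezh1 to Ezh2, alternative methyltransferases of the Polycomb complex, moved by 0.64 and that of Mbnl1 to Mbnl3 by 0.38, the smallest shifts among the 36. Tln2 over Tln1, the talins that link integrins to actin, was the single exception. Its ratio was 1.11 and 0.88 in SC and 0.37, 0.36 and 0.04 in SMF, because Tln2, taken as the muscle form, had 38.3 and 46.3 FPKM in SC and 4.79 to 5.08 FPKM in SMF.

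**Figure D5:**
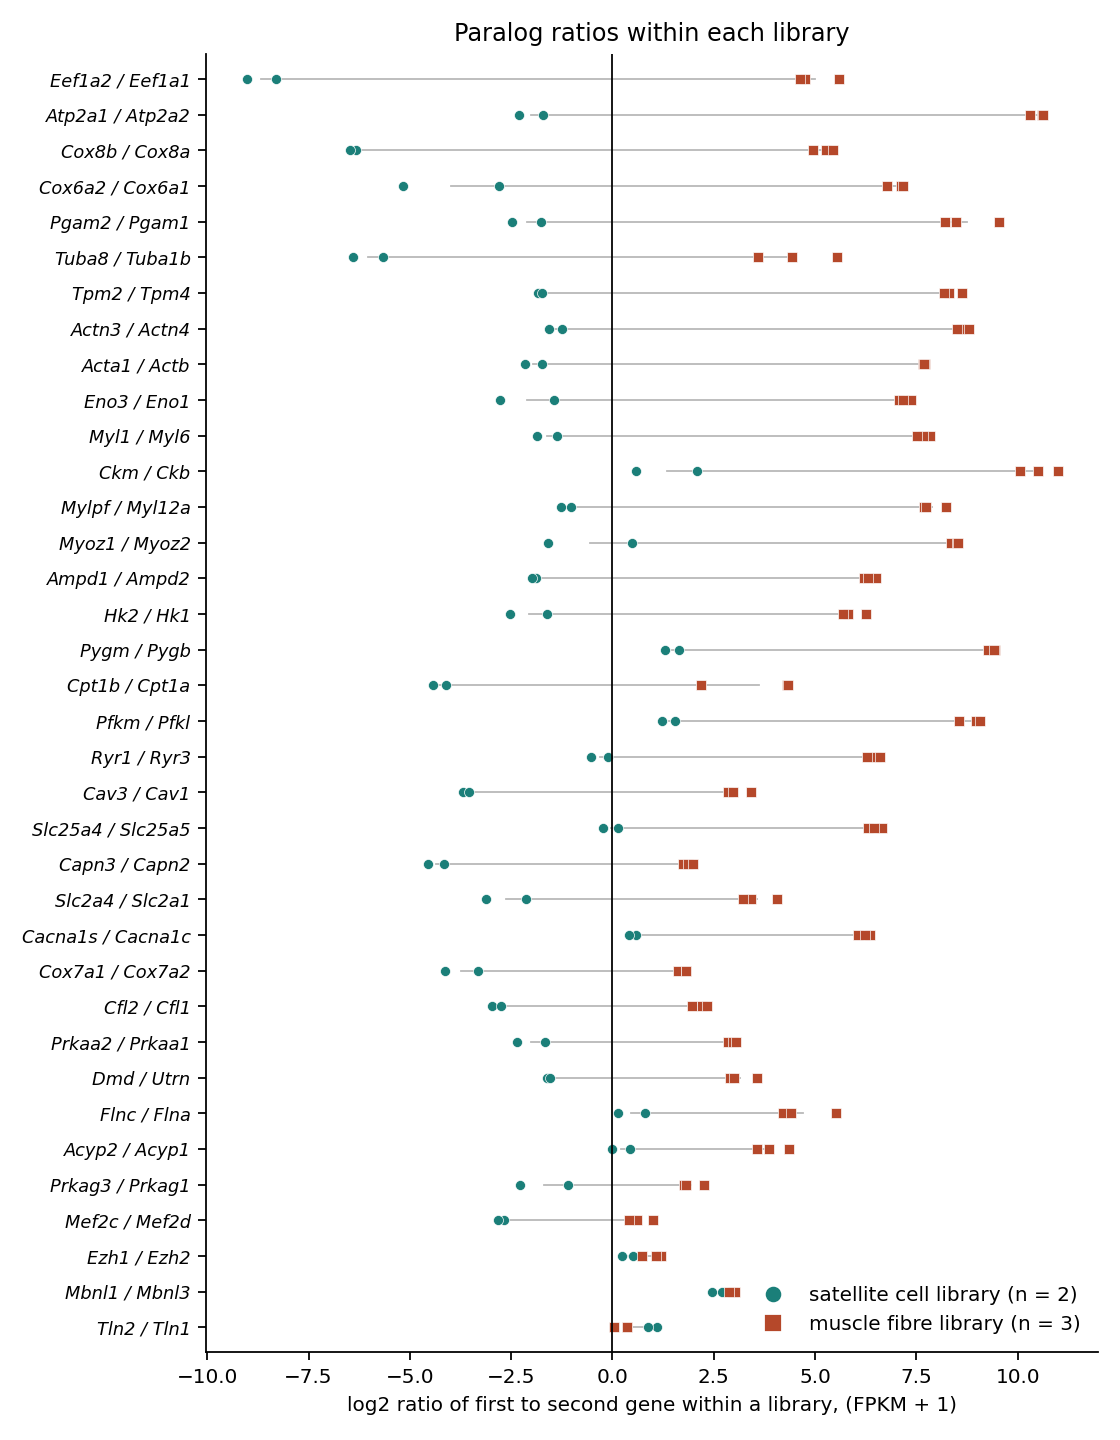
Log2 ratio of the muscle form to its partner (FPKM + 1) within each library, 1 row for each of 36 pairs, with circles for SC and squares for SMF libraries and a line at equal levels. The groups are apart in 35 rows, 25 of which lie on opposite sides of the line, and Tln2 over Tln1 is the row with the opposite order.

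Genes listed at 0 in 1 population give no fold change. In all 3 SMF libraries 519 tested genes were listed at 0, of which 51 had at least 5 FPKM in both SC libraries, and in both SC libraries 100 were listed at 0, of which 22 had at least 5 FPKM in all 3 SMF libraries. The SC number needs 2 zeros and the SMF number 3. At 5 FPKM, the genes listed at 0 in 1 group thus numbered 73, and 135 without SC1, 131 without SC3 and 94 to 105 without 1 of the SMF libraries. A 0 can be a failed estimate: Rps23, a ribosomal protein gene used by every cell, was listed at 0 in all 3 SMF libraries and at 68.3 and 65.7 FPKM in SC. The following genes were named after their values were seen. Fbp2, the muscle fructose bisphosphatase, was at 15.7, 17.3 and 17.8 FPKM in SMF and listed at 0 in SC, as was Myoz3, a Z-disc protein, at 13.8, 16.5 and 9.73 FPKM. Hist1h1b, a linker histone of dividing cells, was at 15.6 and 21.4 FPKM in SC and listed at 0 in SMF.

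Genes at a like level help to set the scale. The 95% interval of the difference lay within -1 to 1 for 1456 genes as deposited, of which 602 also had a difference within -1 to 1 under all 4 scalings. Of the 1456, 190 were called higher in SC and 60 higher in SMF. Fth1, the heavy chain of ferritin, was the most abundant of them, with 423 and 354 FPKM in SC and 445, 376 and 444 FPKM in SMF. Ybx1, an RNA-binding protein, had 74.8 and 83.9 FPKM in SC and 69.9 to 97.3 FPKM in SMF, and Asb5, a ligase adaptor of muscle, had 103 and 54.7 FPKM in SC and 71.1 to 91.2 FPKM in SMF. Ankrd1, a stress-responsive titin partner, had 50.3 and 63.1 FPKM in SC and 83.7, 45.3 and 52.3 FPKM in SMF, again with SMF1 highest. After median-of-ratios scaling Fth1, Ybx1 and Asb5 differed by -1.71, -1.60 and -1.64, so their likeness holds for the deposited values. Lamp1, a lysosomal membrane protein, had 44.6 and 54.0 FPKM in SC and 68.0 to 70.5 FPKM in SMF and was called higher in SMF at -0.49.

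Markers of other cells gave calls on both sides, some of them at high levels in SC. Over all tested genes 65.1% were called higher in SC, and 34.1% under all 4 scalings. As deposited, the mural, endothelial, fibro-adipogenic and immune lists did not exceed that share. In bulk libraries fewer cells of a type and less RNA per cell cannot be told apart. Of 8 tested mural cell genes 5 were higher in SC and 2 in SMF, and 3 and 2 under all 4, with Tagln at 46.2 and 52.9 FPKM in SC and 0.350 to 0.744 FPKM in SMF, but the defining gene Rgs5 was at 11.7 and 4.81 FPKM in SC and 2.82 to 3.98 FPKM in SMF. The list summed to 404 and 495 FPKM in SC and 342 to 384 FPKM in SMF, a total in which Des, Acta2 and Notch3 weigh most. Of 7 endothelial genes 4 were higher in SC, 2 of them under all 4, and the 18 listed genes summed to 45.0 and 30.9 FPKM in SC and 10.2 to 12.9 FPKM in SMF, with Pecam1 at 4.18 and 2.51 FPKM in SC. Of 12 tested genes of fibro-adipogenic cells 5 were higher in SC and 1 in SMF, and 3 and 1 under all 4. They summed to 479 and 473 FPKM in SC and to 47.5, 116 and 106 FPKM in SMF, but the defining gene Pdgfra was at 1.31 and 1.70 FPKM in SC and at most 0.556 FPKM in SMF. Gsn, Col3a1 and Dpt made up most of the SC sum. Gsn, an actin-severing protein, had 203 and 202 FPKM in SC and 17.0, 57.9 and 53.5 FPKM in SMF, Col3a1 had 108 and 113 FPKM in SC and 1.44, 5.07 and 4.79 FPKM in SMF, and Dpt had 103 and 95.5 FPKM in SC and 1.37, 6.09 and 7.50 FPKM in SMF. Of 8 immune genes 4 were higher in SC, 2 of them under all 4, with sums of 36.7 and 45.9 FPKM in SC and 2.04 to 6.14 FPKM in SMF. Adgre1, a macrophage marker, was listed at 0 in all 5 libraries. The neutrophil genes S100a9 and S100a8 were named after their values were seen. S100a9 had 13.1 and 37.8 FPKM in SC and S100a8 had 9.38 and 11.7 FPKM, and each SMF library listed both at 0. Of 4 erythroid genes 2 were higher in SC, of 3 Schwann cell genes 2 and of 3 tendon genes 1, and under all 4 these counts were 0, 2 and 0. The 1 adipocyte gene tested was higher in SMF. SMF1 stood apart in the tendon list, which summed to 35.0 FPKM there and to 2.06 and 4.30 FPKM in SMF2 and SMF3. Of the 11 fibre genes used to look for fibre RNA in SC, all were higher in SMF, and they summed to 200.2 and 321 FPKM in SC and 36253 to 39355 FPKM in SMF. The part of these other cells in the matrix, Notch3 and antigen results was not tested.

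Transcripts linked to sex moved with the groups. Xist, transcribed from the inactive X chromosome of females, had 14.9 and 46.0 FPKM in SC and 0.0425, 0 and 0.0209 FPKM in SMF. Ddx3y, on the Y chromosome, had 15.0 and 3.84 FPKM in SC and 10.8, 10.8 and 11.3 FPKM in SMF. Both kinds of transcript were present in each SC library, while the SMF libraries held the Y-linked one with Xist near 0. The labels give no sex, and its part in the differences was not tested.

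A few fibre genes stand next to far more abundant ones. Ube2c, known for its role in mitosis, had 5.62 and 9.77 FPKM in SC and 736, 755 and 817 FPKM in SMF. It lies at chr2:164769929-164772902, 4258 bases from Tnnc2, which is at chr2:164777161-164779734 (GRCm38). The 1 transcript of Ube2c in the deposited transcript table was at 0 and 0.906 FPKM in SC and at 0, 1.79 and 0.365 FPKM in SMF. The level of the gene therefore cannot be traced to transcripts in these files. Rabep2 shares 50 bases with Atp2a1, so reads in that overlap cannot be assigned to one gene from these files. The labels do not say whether counting used the strand.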

How the data were processed

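The authors deposited gene-level FPKM, transcript-level FPKM with read coverage, and a table of TPM with a specificity score; per the submitters' processing notes the build was mm10 and the tools FastQC, Trimmomatic, HISAT2, StringTie and bedtools. Input was 10 ng of total RNA per library, primed at random and read as pairs of 50 bases, per the labels' protocols. The deposited signal (coverage) was used for aligned bases, the deposited TPM as an alternative, and the authors' score was not used. All 8 libraries, including 3 of endothelial cells, entered 1 fit of limma 3.58.1 (R 4.3.3) with its trend option, on log2(FPKM + 1), and the contrast was SC minus SMF, two-sided, with Benjamini-Hochberg adjustment over 13400 genes. The calculation was tested on simulated data.

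Genes within 0.1 FPKM of the limit were alike on both sides: 448 just inside and 451 just outside, with SC higher in 87.7% and 85.8%. Members and lists were chosen with earlier results of these data known. Named genes are, by rule, the 12 most abundant in each direction at 3 log2 units or more, up to 4 and 2 called members of each list in its 2 directions, all satellite cell and myogenic genes, all pairs, and the 10 most abundant alike genes. Other genes named were chosen after their values were seen. A few genes that the rule takes are not reported here. Levels of different genes are compared per length, as FPKM. Promoter sequences are from RefSeq, GRCm38.p6.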

Additional observations from a re-analysis of the deposited data

How the results depend on the processing

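Against 8725 genes higher in SC and 1458 higher in SMF, median-of-ratios scaling gave 4570 and 3736, and the SMF count was 2918 with upper-quartile scaling and 2662 without the 50 most abundant genes. A limma test against a log2 difference of 1 gave 4125 and 642. The median difference of 1.14 became 0.19, 0.48 and 0.53 under these 3 scalings, 1.79 with a pseudocount of 0.1 and 0.44 with no filter on low values. Without 1 library, the counts ranged from 7656 to 8372 and from 1245 to 1378. The count of 73 genes listed at 0 in 1 population became 48 in the deposited TPM table and ranged from 94 to 135 without 1 library, and 131 without SC3. Of the 53 lists, 31 had more than 50% of their tested members called higher in SC, and 20 in the test against a difference of 1. With the replicate number as a block the counts were 8499 and 1439. Deviations from the group means correlated at -0.064 and -0.066 between same-numbered SC and SMF libraries. The deviations of SC1 and SC3 are mirror images, so these values cannot show whether same-numbered libraries share an animal or a preparation. Eya4 turned to -1.08, -0.68 and -0.59 under the 3 scalings in that order, Six4 to -0.49, -0.19 and -0.12, and Rrm1 to -0.60, -0.23 and -0.15. Id2 and Tead1 turned to -0.0164 and -0.0494 under median-of-ratios scaling. Of 209 named genes, 163 had the same call under all 15 settings. Depth limits low SC values, where 1 fragment on 1 kb is worth up to 0.360 FPKM.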
